A study of Mus musculus with 24 samples.

Results

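The cytosolic ribosome is built on ribosomal RNA and a fixed set of ribosomal proteins, and the genes examined here are those that encode these proteins in the mouse. They were the protein-coding rows of the exon count table named Rpsa, Rplp0, Rplp1 or Rplp2, or Rpl or Rps followed by a number and at most 1 of the letters a, x, l and y. The rule took in 81 of the 24506 genes in the table, 31 of the small subunit and 50 of the large one, and 79 of them had enough counts to be tested. The study asks how the transcription factors EBF1 and PAX5 control the growth of B cell precursors through Myc. All RNA came from pro-B cells of C57BL6/J fetal liver, either wild type (WT), without Ebf1 (Ebf1-KO) or without Pax5 (Pax5-KO), grown on OP9 stromal cells with KIT ligand, FLT3 ligand and interleukin-7. Every culture, controls included, was infected with the retroviral vector pMiG. The 7 groups of 2 libraries were WT, Ebf1-KO and Pax5-KO cells with the empty vector, Ebf1-KO cells with Ebf1 or Pax5 in the vector, and Pax5-KO cells with Ebf1 or Pax5 in the vector. EBF1 binding was read from the authors' peak list for 230-238, an Abelson-transformed mouse pre-B cell line that is a model for the primary cells and not one of the cultures above. The labels do not say that the libraries of a group came from separate cultures, so p-values measure the spread between these libraries, which may be technical.

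Each ribosome carries 1 copy of nearly every ribosomal protein, while the acidic proteins RPLP1 and RPLP2 sit in pairs on RPLP0 to form the stalk that recruits elongation factors. Dividing cells must keep making these proteins, and MYC is known to raise the transcription of ribosomal RNA, of ribosome assembly factors and of ribosomal protein genes. Most of these mRNAs in mammals begin with a C followed by a run of pyrimidines, the terminal oligopyrimidine tract, through which LARP1 and the mTOR pathway switch their translation on and off. That control acts on translation, which RNA counts do not measure.

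The start of these genes is shown first because that tract is the sequence feature for which the family is known. Promoters for 61 of the 81 genes were found in RefSeq (GRCm38.p6, the build that mm10 also names), and each window below holds 15 bases before the annotated start base, that base, and the bases after it. Capitals mark a tract of a C and at least 4 further C or T on the sense strand that begins within 10 bases of the annotated start, and all lower case marks a window with no such tract. The marking starts at that limit, so the Rpl7a run, which reaches farther upstream, is capitalized only in part. The pyrimidine run of Rpl4 has its qualifying C beyond the limit and is not marked.
Rpl27a (chr7:109519180-109519209, plus strand): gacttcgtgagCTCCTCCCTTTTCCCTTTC
Rpl35 (chr2:39005117-39005146, minus strand): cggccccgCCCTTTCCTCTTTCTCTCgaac
Rpl15 (chr14:18270972-18271001, minus strand): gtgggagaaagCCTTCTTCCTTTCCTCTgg
Rpl7a (chr2:26910792-26910821, plus strand): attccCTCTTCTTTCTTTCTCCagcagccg
Rpl14 (chr9:120571502-120571531, plus strand): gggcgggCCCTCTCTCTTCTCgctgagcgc
Rps6 (chr4:86857353-86857382, minus strand): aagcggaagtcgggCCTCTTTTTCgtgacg
Rps2 (chr17:24720048-24720077, plus strand): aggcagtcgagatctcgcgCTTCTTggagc
Rpl4 (chr9:64173372-64173401, plus strand): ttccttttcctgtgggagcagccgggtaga
Rps15 (chr10:80292416-80292445, plus strand): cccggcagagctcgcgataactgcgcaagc
Rplp0 (chr5:115559452-115559481, plus strand): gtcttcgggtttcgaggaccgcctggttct
Such a tract was present in 36 of the 61 ribosomal protein promoters (59.0%) and in 30.7% of all 32851 promoters in the table. With the start base required to be a C with at least 4 further C or T after it, the shares were 21.3% and 2.51%. Runs that begin farther upstream and hold such a start base, as in Rpl14, count here too. The annotated start need not be the base at which transcription begins in these cells.

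Libraries held 16.1 to 42.1 M exon counts, which was between 28.5 and 65.4% of the totals in the file headers. Ebf1 stood at 966 and 1102 CPM (counts per M counts, after TMM scaling) in WT and at 244 and 282 in Ebf1-KO with the empty vector, so reads remained on the disrupted gene, and Pax5 stood at 412 and 333 in WT and at 20.1 and 12.3 in Pax5-KO. The groups differed in cell type markers. The summed level of 10 pro-B markers ran from 5466 to 5686 CPM in WT, 483 to 536 in Ebf1-KO and 1480 to 1533 in Pax5-KO, all 10 being above 0 in each of these libraries. The summed level of 10 myeloid markers ran from 175 to 264 CPM in WT, 926 to 1014 in Ebf1-KO and 715 to 893 in Pax5-KO. A list of 10 stromal markers summed to between 16.2 and 240.5 CPM in these 3 groups, with Thy1 the highest and Dcn and Lum at 0 in every library. Natural killer cell markers summed to 2.54 to 5.84 CPM and T cell markers to 7.50 to 9.63 in WT, and both lists were above 150 in every empty-vector knockout library, with Cd3e of the T cell list and Ncr1 of the natural killer list under 1 CPM in all 14 libraries. What part these differences have in the changes of ribosomal protein mRNA was not tested, and in such bulk RNA fewer cells of a type and less RNA per cell cannot be told apart. The second Pax5-KO library with the empty vector stood apart in its ribosomal protein share of all exon counts, given next. Of protein-coding counts alone it held 1.55%, near the 1.53% of the first Ebf1-KO library with the empty vector. Results that rest on the second Pax5-KO library are given with and without it.

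Ribosomal protein genes took about 1% of the exon counts in every library. The 81 genes held 0.921 and 1.02% of the counts in WT and 1.179 and 1.123% in Ebf1-KO. Ebf1-KO cells given Ebf1 had 1.05 and 1.17%, and those given Pax5 0.975 and 1.07%. In Pax5-KO the 2 libraries were far apart, at 0.954 and 1.43%. Pax5-KO cells given Ebf1 had the lowest share of the 7 groups, 0.849 and 0.809%, and those given Pax5 had 0.996 and 1.27%. Both libraries of Pax5-KO cells given Ebf1 lay below all other libraries, and both libraries of Ebf1-KO lay above both of WT. Myc did not follow the same order: its mean was 376 ± 97.7 CPM (SD, n = 2) in Pax5-KO cells given Ebf1, against 165 ± 30.6 in Ebf1-KO and 274 ± 36.1 in WT.

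**Figure D1:**
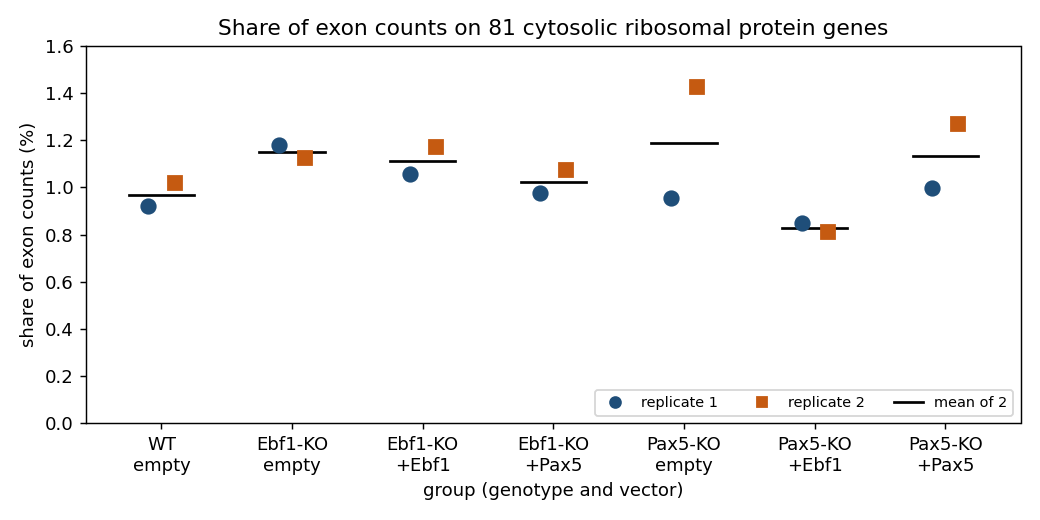
Share of exon counts on the 81 cytosolic ribosomal protein genes (vertical axis, percent) in each of the 14 libraries, by group of genotype and vector. Circles are replicate 1, squares replicate 2 and bars the mean of 2. The 2 libraries of Pax5-KO cells given Ebf1, at 0.849 and 0.809%, are the lowest, and the second empty-vector Pax5-KO library, at 1.43%, is the highest.

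Levels per length, given as TMM-scaled CPM per kb of exon, spread widely, also over core proteins, nearly all of which are needed in equal number. The highest was Rpl4, a large subunit protein that lines the exit tunnel, with 974 in the lowest library, a median of 1170.5 and 1668 in the highest. Rps15 followed with 386, 853 and 1189, and Rpl32 with 423, 727 and 974, so the range of Rps15 overlapped both of the others. The lowest tested members were Rpl3l, with 0 to 1.45, Rps27, with 0.836 to 3.77, and Rpl24, a protein of the subunit interface, with 0.627 to 4.605. The mean of Rpl4 was 2770 times that of Rpl3l, which is a paralogue of the core gene Rpl3. Between core genes the spread was smaller, with means of 1248.5 for Rpl4 and 2.06 for Rpl24. The median member stood at 60.5 and the median of all 13349 protein-coding genes tested at 8.28, and 64 of the 79 tested members lay above the latter. Members are short, with a median exon length of 696 bases against 2876 for those genes.

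A technical limit of this family bears on these levels. RefSeq names 320 pseudogenes after 62 of the members, among them 14 for Rpl7a, 14 for Rpl23a and 12 each for Rps2 and Rpsa, and how reads with several equally good hits were counted is not given in the sources used here. The median level was 88.6 for the 17 tested members with no such pseudogene, 57.9 for the 38 with 1 to 4 and 36.7 for the 24 with 5 or more. Rpl24 has no pseudogene by that count and was low all the same. The part of shared reads in these levels was not tested, and levels of members with many copies are uncertain. Many members also hold small nucleolar RNA genes in their introns, as Rps2 holds Snora64 and Rpl4 holds Snord16a.

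**Figure D2:**
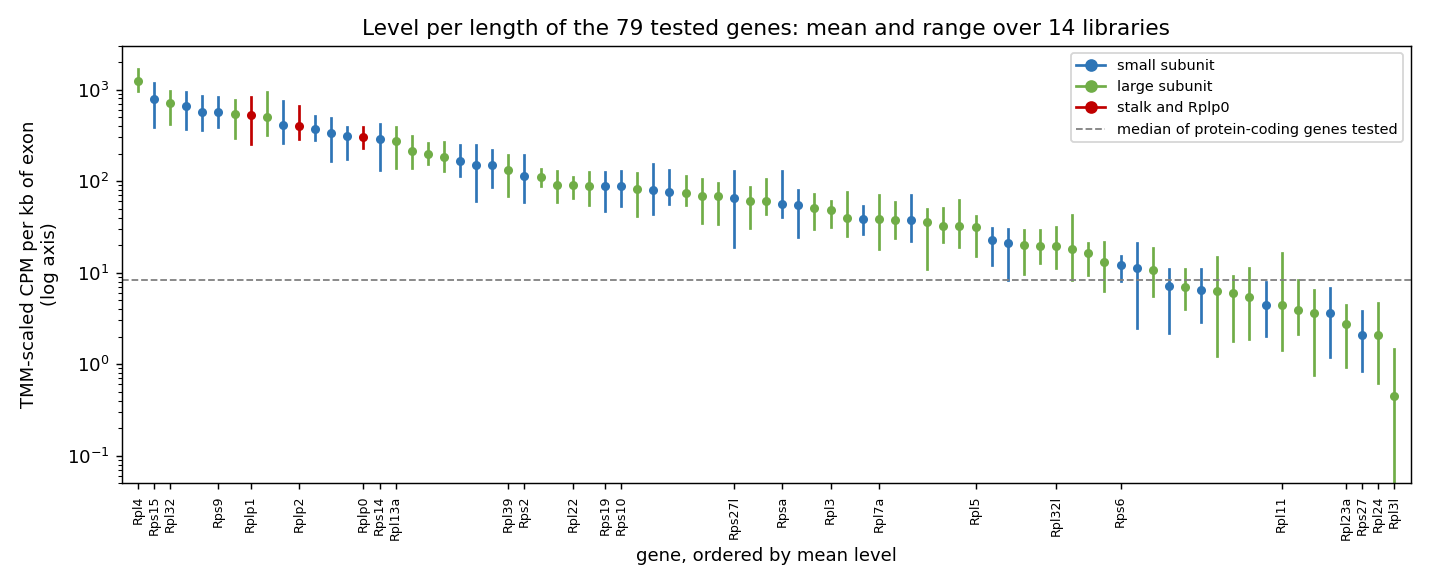
Level per length of the 79 tested ribosomal protein genes (vertical axis, TMM-scaled CPM per kb of exon, log axis), ordered by mean. Points are means and lines the range over 14 libraries, coloured by subunit and labelled for some of the genes, with the lower end of Rpl3l, which was 0 in some libraries, cut at the axis; the dashed line is the median of tested protein-coding genes, 8.28. Small and large subunit genes are spread over the whole order, from Rpl4 with a median of 1170.5 down to Rpl3l.

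Members with known roles outside the intact ribosome or in disease lay at very different levels. RPL5 and RPL11 bind MDM2 when ribosome assembly fails, which raises p53. Rpl5 ran from 15.2 to 41.7 CPM per kb and Rpl11 from 1.44 to 16.2. The mRNAs of Rps19 and Rps14, whose human counterparts are lost or mutated in anaemias of failed ribosome assembly, ran from 47.3 to 124 and from 133 to 421. Rpl22, needed for early T cell development in mice, ran from 64.9 to 110.3. Rps6, the substrate of S6 kinase, ran from 8.11 to 15.2, Rpsa, a small subunit protein also described as a laminin receptor, from 40.5 to 128, and Rplp0, Rplp1 and Rplp2 of the stalk from 231 to 388, 256 to 831 and 288 to 655. None of Rpl5, Rpl11, Rps19, Rps14, Rpl22, Rps6, Rpsa, Rplp0 and Rplp2 passed the test in any of the 9 contrasts below.

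The paralogues whose names end in l were mostly silent or low. Rpl10l, known from testis, had 0 counts in all 14 libraries, where 3 counts would be between 0.0753 and 0.18 CPM, and Rpl39l had 1 count in all. Rpl3l, known from heart and skeletal muscle, had 3 and 0 counts in WT. It had 26 and 36 counts in Ebf1-KO with the empty vector, 18 and 19 where Ebf1 was added and 36 and 61 where Pax5 was added. The Pax5-KO counts were 5 and 3 with the empty vector, 0 and 0 with added Ebf1 and 3 and 21 with added Pax5. Both libraries of each Ebf1-KO group exceeded both of WT, but no contrast passed the test for Rpl3l. Its core partner Rpl3 ran from 31.4 to 60.9 CPM per kb over all libraries. Rps27l, a target of p53, was the paralogue of highest level, averaging 66.1 CPM per kb against 2.10 for its core partner Rps27. That partner overlaps Rps27rt, so reads could be split between them. Rps27rt itself was low, at 0.237 to 1.91 CPM, beside 0.477 to 2.15 CPM for Rps27. In CPM, Rps27l stood at 25.0 and 24.9 in WT, and the empty-vector knockouts had 75.2 and 31.6 (Ebf1-KO) and 44.8 and 51.8 (Pax5-KO). With added Ebf1 it stood at 49.8 and 35.5 in the Ebf1-KO background and 54.1 and 14.5 in the Pax5-KO background, and with added Pax5 at 32.1 and 11.1 and at 54.9 and 32.4, the 2 libraries of a group often being far apart. Rpl32l ran from 11.2 to 31.6 CPM per kb, against 423 to 974 for Rpl32.

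Between Ebf1-KO and WT, no ribosomal protein mRNA passed the threshold. A change was called where the adjusted p of edgeR's quasi-likelihood test, by Benjamini and Hochberg over 14550 genes, was under 0.05. By that rule 0 of the 79 members were called between Ebf1-KO and WT, where 14.7% of all tested genes were. At an unadjusted p under 0.05 there were 4 members higher and 0 lower, where 14.7% of all genes were higher at that level too, and DESeq2 called 1 member, Rplp1, and 21.1% of all genes. Fitted log2 differences were above 0 for 57 members and their median was 0.18, against 0.03 for all genes. In 20 members both Ebf1-KO libraries lay above both WT libraries (25.3%, against 32.3% of all genes) and in 2 both lay below (2.53%, against 27.2%). Libraries numbered 1 and those numbered 2, taken alone, gave medians of 0.22 and 0.19. The median was 0.065 without the first Ebf1-KO library, 0.11 without the second WT library and 0.28 without the second Ebf1-KO library, and without the first WT library 1 member, Rps15, was called higher, where 11.1% of all genes were called. Most members thus differed from WT by less than the spread between libraries.

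Between Pax5-KO and WT, 2 members were higher in the knockout. Rplp1 (NM_018853, chromosome 9, 61913283 to 61914510, mm10), which encodes a stalk protein, stood at 129.9 and 118.5 CPM in WT and at 231 and 385 in Pax5-KO. All libraries of the other 6 groups lay above both WT libraries, between 186 and 385. Between Pax5-KO and WT its log2 difference was 1.31 ± 0.29 (SE, adjusted p = 0.00657), and between Ebf1-KO, at 217 and 229 CPM, and WT it was 0.84 ± 0.29 (adjusted p = 0.0636). Rps2 (NM_008503, chromosome 17, 24720063 to 24721927), which encodes a small subunit protein near the mRNA entry, stood at 86.2 and 58.5 CPM in WT and 111.5 and 188 in Pax5-KO, and rose by 1.05 ± 0.32 (adjusted p = 0.044). These 2 were called of 79, against 13.6% of all tested genes in either direction and 8.65% called higher. At an unadjusted p under 0.05 there were 6 members higher and 0 lower, against 15.7% of all genes higher. Both Pax5-KO libraries lay above both WT libraries in 18 members (22.8%, against 31.1% of all genes) and below in 4 (5.06%, against 26.5%). The 2 empty-vector comparisons share the WT libraries.

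Both calls rested on single libraries. Without the second Pax5-KO library the log2 difference of Rplp1 was 0.90 (adjusted p = 0.118) and that of Rps2 0.62 (adjusted p = 0.44). Without the second WT library they were 1.25 (adjusted p = 0.0747) and 0.80 (adjusted p = 0.329), and without the first WT library Rps2 missed the threshold too (adjusted p = 0.0615). With the second Pax5-KO library alone, the first being left out, 6 members were called higher, where 11.2% of all genes were called in either direction. The median of the 79 differences was 0.18 with all libraries and 0.09 without the second Pax5-KO library, against 0.04 for all genes. Libraries numbered 1, taken alone, gave a median of −0.02 and those numbered 2 a median of 0.28.

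**Figure D3:**
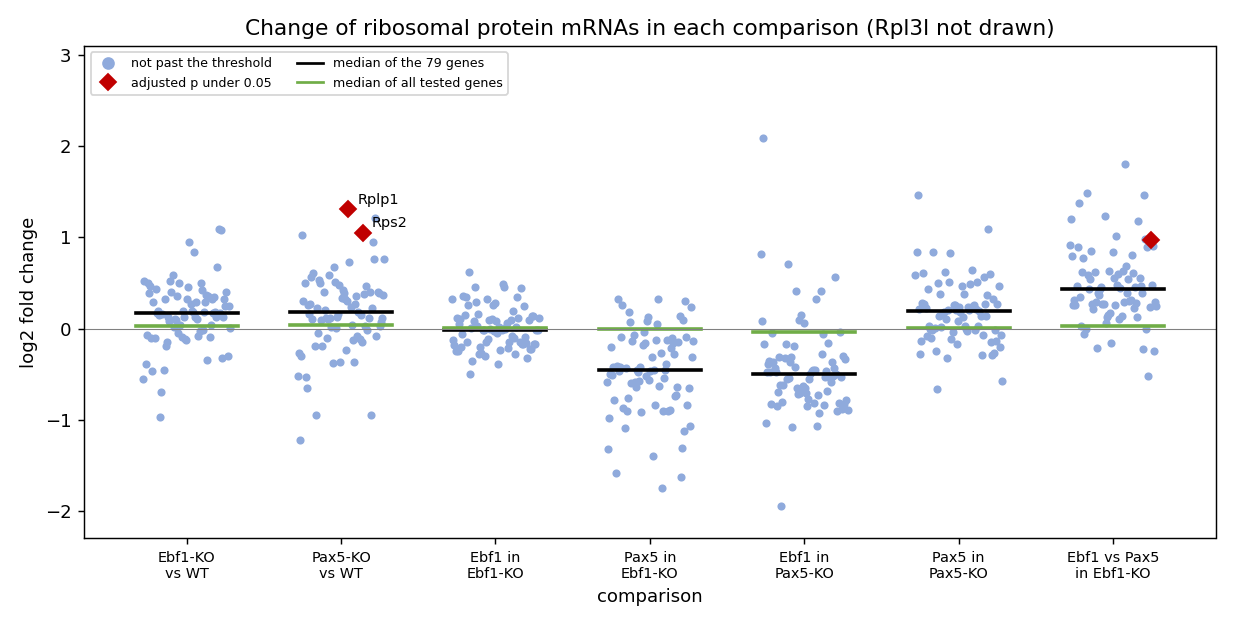
Log2 fold change of the tested ribosomal protein mRNAs (vertical axis) in each of the 7 two-group comparisons. Each point is a gene, red diamonds passed the adjusted p threshold of 0.05, black bars are the median of the 79 genes and green bars that of all 14550 tested genes. Rpl3l, whose fitted values rest on counts near 0, is not drawn. The black bars lie at −0.45 and −0.50 for Pax5 in Ebf1-KO and Ebf1 in Pax5-KO and near 0 for Ebf1 in Ebf1-KO.

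When Ebf1 was restored to Ebf1-KO cells, no change of a ribosomal protein mRNA was detectable with 2 libraries a group. None of the 79 members was called by edgeR or DESeq2, and 0 had an unadjusted p under 0.05, where edgeR called 2.97% of all genes, DESeq2 called 5.26% and 11.1% had such a p. The median log2 difference was −0.02, with 38 members above 0 and 41 below, and it was −0.10 for libraries numbered 1 and 0.12 for those numbered 2. Both Ebf1 libraries lay above both empty-vector libraries in 11 members (13.9%, against 24% of all genes) and below in 2 (2.53%, against 23.6%). The largest difference above 0 was that of Rpl23a, at 0.62 ± 0.98. Myc rose in the same comparison by 1.14 ± 0.25 (adjusted p = 0.0214), from 143 and 187 CPM to 308 and 418. Pro-B markers summed to 2841 to 2883 CPM with Ebf1, myeloid markers to 544.5 to 566, natural killer cell markers to 91.9 to 114.5 and T cell markers to 123 to 128. Ebf1 itself held 857 and 893 CPM of the pro-B sums with Ebf1, against 244 and 282 with the empty vector. Within the natural killer list Gzma rose from 2.01 and 0.311 to 69.6 and 41.3 CPM, while Il2rb fell from 62.4 and 104 to 14.1 and 16.3.

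With Pax5 in Ebf1-KO cells no ribosomal protein mRNA passed the threshold, though fitted log2 differences lay below 0 for 66 of 79. By edgeR 0 of 79 were called, where 4.08% of all genes were, and DESeq2 called 2 lower, Rpl7a among them, and 9.29% of all genes. The median log2 difference was −0.45, against −0.01 for all genes, and it was −0.50 for libraries numbered 1 and −0.27 for those numbered 2. At an unadjusted p under 0.05 there were 13 members lower and 0 higher, where 7.26% of all genes were lower. Both Pax5 libraries lay below both empty-vector libraries in 37 members (46.8%, against 25.4% of all genes) and above in 1 (1.27%, against 24.2%). Small subunit genes had a median of −0.45 and large subunit genes other than the stalk −0.47, while the 3 stalk genes had 0.05. The 40 tested members of lower level per length had a median of −0.64 and the 39 of higher level −0.27. Pro-B markers summed to 1002 to 1034 CPM with Pax5 against 483 to 536 with the empty vector. Pax5 itself is on that list and held 429 and 399 CPM of the sums with Pax5. Rag1 of the same list rose from 21.55 and 23.2 to 141 and 165 CPM, while Il7r fell from 210 and 221 to 98.9 and 89.8. Natural killer cell markers summed to 440 to 470 CPM against 248 to 311.5. Myeloid markers summed to 886 to 938 and T cell markers to 154 to 182, near the empty-vector ranges. The part of these lists was not tested.

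The member with the smallest p in that comparison, Rpl7a, was singled out after its values were seen. Rpl7a (NM_013721, chromosome 2, 26910807 to 26913311), a large subunit protein, stood at 37.7 and 60.5 CPM in Ebf1-KO and at 15.6 and 21.6 with Pax5. The groups did not overlap, and the log2 difference was −1.40 ± 0.42 (adjusted p = 0.0798); without 1 library in turn it ran from −1.72 to −1.02. Such a low level was not particular to that group. Rpl7a stood at 15.6 and 21.1 CPM in Pax5-KO cells given Ebf1 and at 32.3 and 18.3 in WT. RefSeq names 14 pseudogenes after Rpl7a, so its level is uncertain.

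Compared directly, the fitted level was higher with Ebf1 than with Pax5 in Ebf1-KO cells for 70 of 79 members, and 1 passed the threshold. By edgeR that member was called higher with Ebf1, where 10.2% of all genes were called in either direction and 4.74% higher, and 0 members were called when any 1 of the 4 libraries compared was left out. Rpl7a stood at 29.8 and 45.4 CPM with Ebf1 and at 15.6 and 21.6 with Pax5, and its difference missed the threshold. The median was 0.44, against 0.02 for all genes, and 0.43 and 0.41 for libraries numbered 1 and 2. Both Ebf1 libraries lay above both Pax5 libraries in 44 members (55.7%, against 29.6% of all genes) and below in 3 (3.8%, against 26.4%). At an unadjusted p under 0.05 there were 11 members higher and 0 lower, and 11.8% of all genes were higher at that level. This comparison shares its Pax5 libraries with the one before it.

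**Figure D4:**
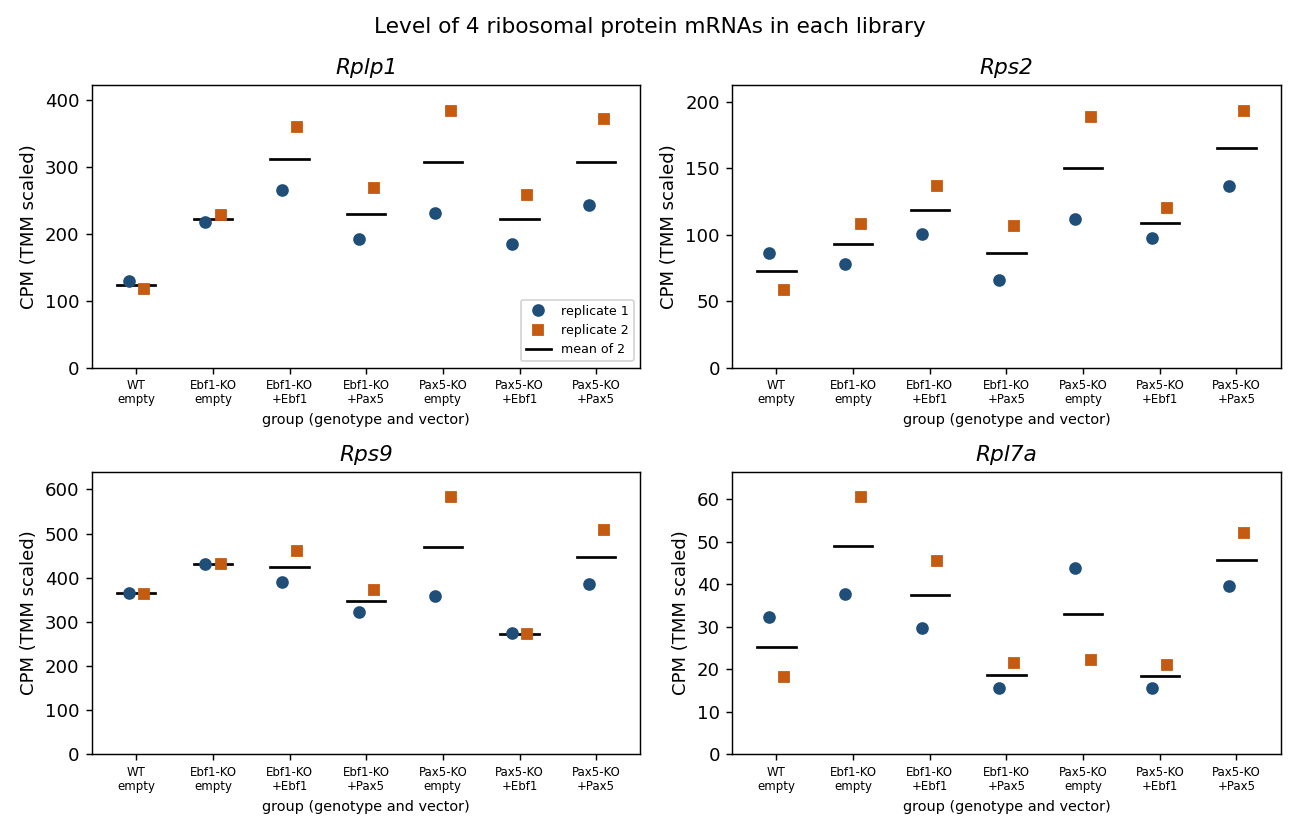
Level of Rplp1, Rps2, Rps9 and Rpl7a (vertical axes, TMM-scaled CPM from 0) in each library by group; circles are replicate 1, squares replicate 2 and bars the mean of 2. Rplp1 is lowest in the 2 WT libraries, at 129.9 and 118.5 CPM, and Rpl7a in Ebf1-KO cells given Pax5, at 15.6 and 21.6, lies below Ebf1-KO with the empty vector or Ebf1. Rpl7a is about as low in Pax5-KO cells given Ebf1, at 15.6 and 21.1 CPM.

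For Ebf1 added to Pax5-KO cells no member passed the threshold either, though fitted log2 differences lay below 0 for 68 of 79. By edgeR 0 of 79 were called, where 3.6% of all genes were, and DESeq2 called 5 lower, Rpl13, Rpl27, Rps9 and Rps10 among them, and 11.3% of all genes. The median log2 difference was −0.50, against −0.04 for all genes, and it was −0.27 for libraries numbered 1 and −0.67 for those numbered 2. The 2 libraries of Pax5-KO cells given Ebf1 correlated least of any group, at 0.895 (Pearson, log2 CPM). At an unadjusted p under 0.05 there were 25 members lower and 0 higher, where 11.6% of all genes were lower. Both Ebf1 libraries lay below both empty-vector libraries in 41 members (51.9%, against 24.4% of all genes) and above in 0, where 17.7% of all genes did. Small subunit, large subunit and stalk genes had medians of −0.53, −0.48 and −0.47. The cell type markers moved in the same comparison, from 1480 to 1533 CPM up to 3360 to 3902 for the pro-B list, which holds Ebf1 itself, and down to 421 to 498 for the myeloid list. Natural killer cell markers summed to 415 to 471 CPM with the empty vector and 231 to 350.3 with Ebf1, but single markers went opposite ways. Gzma rose from 10.6 and 6.46 to 255.5 and 127 CPM, while Il2rb fell from 181 and 213 to 42.35 and 54.95. T cell markers went from 268 to 315.5 to 142 to 154 CPM. Stromal markers went from 198 to 240.5 to 63.1 to 112, mostly Thy1, which went from 188 and 226 to 61.7 and 105. The part of these lists was not tested.

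Of the members with low p in Pax5-KO cells given Ebf1, the small subunit genes Rps9 and Rps10 were singled out by their values. Rps9 (NM_029767, chromosome 7, 3704041 to 3706897) stood at 358 and 582 CPM in Pax5-KO and at 274 and 272 with Ebf1, a difference of −0.78 ± 0.23 (adjusted p = 0.0705). Rps10 (NM_025963, chromosome 17, 27630429 to 27635242) stood at 48.0 and 61.4 CPM in the former and at 31.8 and 30.3 in the latter, a difference of −0.82 ± 0.26 (adjusted p = 0.0942). Neither gene overlapped between the groups. The second Pax5-KO library is the one with the high ribosomal protein share. Without it the difference of Rps9 was −0.39 (adjusted p = 0.522) and that of Rps10 −0.63 (adjusted p = 0.44), while without the first that of Rps9 was −1.11 (adjusted p = 0.0239). Without the second the family's median was −0.34, with 63 members below 0, while leaving out the first gave −0.62 and 3 members called lower, Rps9, Rps20 and Rpsa, where 2.1% of all genes were called. Without the first Ebf1 library 1 member, Rps18, was called lower, and without the second, 4 were called, 2 higher and 2 lower, where 3.04 and 15% of all genes were called.

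When Pax5 was restored to Pax5-KO cells, no member passed the threshold. By edgeR 0 of 79 were called, where 4.03% of all genes were, DESeq2 called 0 and 8.39% of all genes, and 0 had an unadjusted p under 0.05, where 14.7% of all genes had. The median log2 difference was 0.19, against 0.01 for all genes, and 54 members lay above 0, and it was 0.23 and 0.04 for libraries numbered 1 and 2. The median was 0.063 without the first Pax5 library, 0.087 without the first empty-vector library, where Rpsa alone was called (lower) and 2.71% of all genes were, and 0.29 without the second empty-vector library. Both Pax5 libraries lay above both empty-vector libraries in 20 members (25.3%, against 23.5% of all genes) and below in 3 (3.8%, against 23.7%). Rplp1 stood at 243 and 373 CPM with Pax5, much as in Pax5-KO with the empty vector. Pro-B markers summed to 4431 to 4552 CPM with Pax5, myeloid markers to 263 to 292, natural killer cell markers to 118.5 to 124.5 and T cell markers to 65.1 to 75.5, the last 3 lists lying below both empty-vector libraries; their part was not tested. Myc stood at 277 and 344 CPM in Pax5-KO and 499 and 670 with Pax5, a difference of 0.91 that missed the threshold.

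The difference between backgrounds was tested for each gene. For Pax5, the effect in Pax5-KO minus that in Ebf1-KO had a median of 0.65 over the 79 members and 0.00 over all genes, with 67 members above 0, and a median of 0.42 without the first Ebf1-KO library. By edgeR 0 members were called, where 3.16% of all genes were, 11 had an unadjusted p under 0.05, all above 0, where 6.9% of all genes did so, and DESeq2 called 2, Rpl7a and Rpl10a, and 9.21% of all genes. Rpl7a had the smallest p, with a difference of 1.87 ± 0.58 (adjusted p = 0.106). For Ebf1, the effect in Pax5-KO minus that in Ebf1-KO had a median of −0.51 over the members and −0.08 over all genes, with 65 members below 0. That median was −0.19 for libraries numbered 1 and −0.89 for those numbered 2, and −0.39 without the second empty-vector Pax5-KO library. By edgeR and DESeq2 0 members were called, where edgeR called 0.612% and DESeq2 1.8% of all genes, and 8 had an unadjusted p under 0.05, all below 0, where 5.62% of all genes did so.

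Genes that make and run ribosomes were read beside the proteins. Of 26 ribosome biogenesis genes, 4 fell with Pax5 in Ebf1-KO cells and 0 rose, where 0.935% of all genes fell, and the list's median was −0.61. Gnl3, which encodes the nucleolar protein nucleostemin, stood at 107 and 96.4 CPM in Ebf1-KO and 39.3 and 36.6 with Pax5, and fell by 1.42 (log2, adjusted p = 0.00125). Nop58, a core protein of box C/D small nucleolar particles, fell by 1.05 (adjusted p = 0.00905) and Nop10, of box H/ACA particles, by 1.08 (adjusted p = 0.0143). Without the first Ebf1-KO library the adjusted p was 0.0508 for Nop58 and 0.159 for Nop10, and both calls were also lost without the second Ebf1-KO or the first Pax5 library (adjusted p from 0.0522 to 0.104), that of Nop10 without the second Pax5 library as well (adjusted p = 0.126). Between Ebf1-KO with Ebf1 and with Pax5, 10 of the 26 were higher and 0 lower, where 4.74% of all genes were higher, with a median of 1.02, led by Gnl3 at 1.99 (adjusted p = 3.6e-05). Between Pax5-KO and WT 4 rose, Nhp2 by 1.02, Mybbp1a by 0.99 and Bop1 by 0.96 among them, and 0 fell, where 8.65% of all genes rose, with a median of 0.41; without the second WT or the second Pax5-KO library none of those 3 passed (adjusted p from 0.138 to 0.376), Bop1 also not without either of the other libraries (0.0997 and 0.105) and Mybbp1a not without the first Pax5-KO library (0.124). None was called with Ebf1 in Ebf1-KO (median 0.30), Ebf1 in Pax5-KO (median −0.08), Pax5 in Pax5-KO (median 0.49) or Ebf1-KO against WT (median 0.27). With extra Ebf1 in Pax5-KO, then, the biogenesis list had a median near that of all genes, −0.04, and the ribosomal proteins one of −0.50; the difference between the lists was not tested.

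Other lists moved in few genes. Of 17 translation factors known for pyrimidine starts, Eef1d, an elongation factor subunit, rose by 1.13 (adjusted p = 0.0129) between Pax5-KO and WT, though without the second WT or second Pax5-KO library its adjusted p was 0.166 and 0.168. Eef1b2, another such subunit, fell by 1.01 (adjusted p = 0.0434) with Pax5 in Ebf1-KO, which missed the threshold when any 1 of the 4 libraries was left out (adjusted p from 0.141 to 0.22). Of 10 regulators of oligopyrimidine translation, Rptor, an mTOR complex subunit, was lower in Ebf1-KO than WT by −0.72 (adjusted p = 0.0344) and Rps6kb1, an S6 kinase, was higher in Pax5-KO than WT by 0.70 (adjusted p = 0.0425). Rptor missed the threshold without any 1 of its 4 libraries (adjusted p from 0.0988 to 0.206), and Rps6kb1 without the second WT library, where its difference was 0.43 (adjusted p = 0.388), or without the first or second Pax5-KO library (0.183 and 0.0653). Of 8 ribosomal components that the naming rule leaves out, Rack1, a scaffold on the small subunit, stood at 594.5 and 806 CPM in Pax5-KO and 465 and 327 with Ebf1, and fell by 0.82 with an adjusted p that rounds to 0.05 and lies under it; without the second library of Pax5-KO or of the Ebf1 group it was 0.35 and 0.117. Of 78 mitochondrial ribosomal protein genes, 0 were called in any comparison of a vector with the empty vector, and their median was −0.32 with Pax5 in Ebf1-KO and −0.17 with Ebf1 in Pax5-KO.

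EBF1 binding was read at the starts of the same genes. The authors' list holds 17230 peaks of 320 bases in 230-238 cells, and 18 of the 81 members (22.2%) had a peak within 1000 bases of the start. The share was 19.3% over all protein-coding genes and 29.2% over those tested here. For 5 of the 18 peaks the start of another annotated gene lay nearer to the peak centre than the member's start. Those at Rpl15, Rpl18, Rpl30 and Rps18 were among them. The score and the fold over input of a peak are the authors' values. Of the 18 peaks, 14 scored at or below the list's median of 41, and their median fold was 5.28, against 12.3 for the list. With a score above the median required, 4 members (4.94%) kept a peak, against 7.85% of protein-coding genes and 11.8% of those tested. Counting all peaks, the share of members thus lay between those 2 backgrounds, and with the score limit it lay below both.

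The 4 members with a peak above the median score included Rpl23a, Rpl13a and Rpl39. Rpl23a had the highest, at chr11:78183548-78183868 with a score of 232, rank 218 in the list, and a fold of 50.4. The peak near Rpl13a scored 195 and its centre lay 825 bases upstream of the start. The 14 peaks at or below the median scored 19 to 38 and were at Rplp1, Rplp2, Rpl12, Rpl13, Rpl15, Rpl18, Rpl30, Rps14, Rps15, Rps18, Rps19, Rps20, Rps26 and Rps27l. Rpl39, which encodes one of the smallest ribosomal proteins, had a peak at chrX:37085126-37085446 with a score of 88 and a fold of 50.3, centred 64 bases upstream of the start. Its upstream sequence is shown because the EBF1 core CCCNNGGG occurs in it. The 250 bases before the start (chrX:37085223-37085472, minus strand, GRCm38.p6) follow 5′ to 3′, with the match in capitals.
Rpl39: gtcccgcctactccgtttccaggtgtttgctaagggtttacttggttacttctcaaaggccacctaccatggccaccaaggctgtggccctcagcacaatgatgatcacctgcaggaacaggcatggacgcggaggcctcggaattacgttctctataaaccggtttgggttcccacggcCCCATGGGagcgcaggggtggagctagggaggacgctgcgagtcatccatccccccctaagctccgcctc
The match begins 70 bases before the start. On either strand CCCNNGGG was present in 4 of 61 member promoters of 300 bases (6.56%) and in 13.7% of all promoters. A match is a description of the letters and not a bound site.

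**Figure D5:**
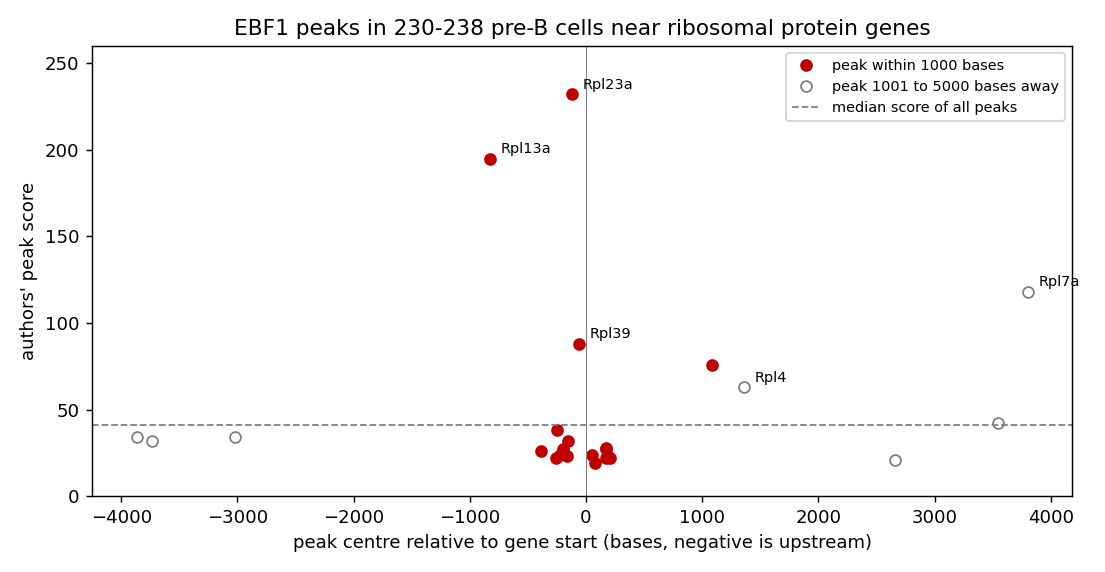
EBF1 peaks within 5000 bases of a ribosomal protein gene start in 230-238 cells: position of the peak centre relative to the start (horizontal axis, bases) against the authors' peak score (vertical axis). Filled points are peaks within 1000 bases, open points those farther away, and the dashed line is the median score of all peaks, 41. Rpl23a at 232, Rpl13a at 195 and Rpl39 at 88 are 3 of the 4 filled points above that line.

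None of Rpl23a, Rpl13a and Rpl39 passed the RNA test in any contrast. Rpl39 stood at 59.8 and 49.8 CPM in WT, and 68.4 and 56.9 in Ebf1-KO. With added Ebf1 the latter cells had 68.3 and 66.6, and those 2 groups overlapped. In Pax5-KO it stood at 56.2 and 63.2 CPM and with Ebf1 at 43.5 and 29.8, a log2 difference of −0.71 ± 0.30 (adjusted p = 0.2). Rpl23a was low, at 0.518 to 2.43 CPM over all libraries, and overlaps 3 small nucleolar RNA genes. With Ebf1 in Ebf1-KO the median over the 18 members with a peak was 0.10 and over the 61 tested members without one −0.02, and with Ebf1 in Pax5-KO the medians were −0.54 and −0.46, all 18 lying below 0 in the second case. Rplp1, the most changed member between Pax5-KO and WT, had a peak of score 19 that covers its start.

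Other promoter motifs were counted on both strands of the same 300 bases. The E box CACGTG, which MYC can bind, was in 5 of 61 member promoters (8.2%) and in 7.15% of all. The ETS site CCGGAAGT was in 18.0 and 3.89%, and the YY1 site AAGATGG in 13.1 and 6.34%. Among tested members with a promoter, the 34 with an oligopyrimidine start had a median log2 difference of −0.48 with Pax5 in Ebf1-KO and the 25 without one −0.20. With Ebf1 in Pax5-KO the medians of these classes were −0.47 and −0.53. The 5 members with an E box had −0.45 and −0.39 in the same comparisons, and the 54 without one −0.46 and −0.52.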

How the data were processed

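The authors deposited exon read counts per gene for 14 RNA libraries, made with HOMER on mm10 without normalization, per the file headers. The submitters' processing notes name, with no roles, HOMER 4.8, STAR 2.6.0b-1 and Bowtie2 among other tools. Strand and the treatment of multiply mapped reads are not given in the sources used here, and copies or overlapping genes can share reads. The peak list deposited by the authors comes from 2 replicates compared by IDR, and gives for each peak a tag count (a signal the authors normalized), a findPeaks score and a fold over control, per the file headers. Columns were matched to samples by name, and none was left over; 1 of the 2 Pax5-KO empty-vector columns carries no number and was matched to replicate 1 because its partner carries a 2. Column names carry a tag that differs between replicate numbers; what it marks is not given, and medians are therefore also given within each number.

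The test was run with edgeR 4.0.16 under R 4.3.3: filterByExpr, TMM scaling and 1 quasi-likelihood fit over the 7 groups, with 14550 genes tested and Benjamini-Hochberg adjustment at 0.05. Each group has 2 libraries, so 1 estimate of spread was shared. Standard errors are the log2 fold change divided by the root of its F. The procedure was tested on simulated data. DESeq2 1.42.0, other scalings, no filter on low counts, 2-group fits and left-out libraries were alternatives. Libraries of a group correlated at 0.895 (Pax5-KO given Ebf1) to 0.971 (Ebf1-KO with the empty vector) by Pearson on log2 CPM, and differed far beyond sampling noise. The members and gene lists were chosen with earlier results of these data known. Named genes were the called members with the largest changes (up to 5 in each direction), the 3 highest and 3 lowest by level, paralogues, members of known roles or with a peak, Myc and up to 3 called genes of each other list. Outside this rule are Rpl27 and Rpl10a, named as DESeq2 calls, and Rpl27a, Rpl35 and Rpl14, named only for their printed starts. Genes singled out by their values are said to be so where they appear. Contact maps in the series were not used here. Some results on single members are not reported here.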

Additional observations from a re-analysis of the deposited data

Results flagged for a closer look

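Every library number gave a median below 0 for Pax5 in Ebf1-KO and above 0 in Pax5-KO. Over the 79 tested ribosomal protein genes the median log2 difference between Pax5 and the empty vector was −0.50 and −0.27 in Ebf1-KO for libraries numbered 1 and 2, and 0.23 and 0.04 in Pax5-KO. The median of the gene-wise differences was 0.65 (0.649), and this median was not tested; gene by gene, 0 members passed. In neither background was a member called for Pax5 itself, 25 of 79 members lay below 0 in Pax5-KO, and the stalk genes had medians of 0.05 in Ebf1-KO and −0.0014 in Pax5-KO.

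Of the genes read beside them, 6 named ones passed edgeR's test of that difference between backgrounds, where 3.16% of all genes did. By list, 4 of 26 ribosome biogenesis genes passed, 1 of 17 translation factors, 1 of 6 hosts of small nucleolar RNAs, and Myc. With 0 passing were the 8 left-out ribosomal components, 10 regulators of oligopyrimidine translation and 78 mitochondrial ribosomal protein genes. The difference was 2.04 for Myc (adjusted p = 0.00624), 1.66 for Nop56 (adjusted p = 0.0106), 1.62 for Nop58 (adjusted p = 0.00733) and 1.5 for Gnl3 (adjusted p = 0.0133). It was 1.74 for Npm1, a nucleolar chaperone (adjusted p = 0.0347), and 1.88 for Snhg5, a host of small nucleolar RNAs (adjusted p = 0.0344). Npm1 stood at 642 and 892 CPM in Ebf1-KO and 340.0 and 485.5 with Pax5, and at 640.0 and 974 in Pax5-KO and 1131 and 1769 with Pax5. Leaving out 1 library in turn, the adjusted p reached 0.0447 for Myc, 0.0506 for Nop58 (without the second Pax5-KO library with Pax5), 0.0802 for Nop56 and 0.0857 for Gnl3 (both without the first Ebf1-KO library), 0.179 for Npm1 (without the second Pax5-KO library with Pax5) and 0.221 for Snhg5 (without the first Ebf1-KO library).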

How the results depend on the processing

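The number of members called moved with the processing; the share of all genes called stands in parentheses. Between Ebf1-KO and WT 1 was called with upper-quartile scaling (14.9%), the 2-group fit (19.8%) or DESeq2 (21.1%), and 2 with no filter on low counts (13.9%). Between Pax5-KO and WT 4 were called with no filter (14%). With Pax5 in Ebf1-KO the count was 4 with no filter (5.35%), 1 in the 2-group fit (4.57%) and 2 by DESeq2 (9.29%). With Ebf1 in Pax5-KO it was 6 with no filter (6.56%), 1 with upper-quartile scaling (3.79%) and 5 by DESeq2 (11.3%). For Ebf1 against Pax5 in Ebf1-KO it was 3 with no filter (11%), and for the Pax5 difference between backgrounds 2 with no filter (5.02%) and 2 by DESeq2 (9.21%). Leaving out 1 library gave 0 to 1, 0 to 6, 0 to 4, 0 to 1 and 0 to 0 calls for Ebf1-KO against WT (8.97 to 11.1%), Pax5-KO against WT (6.95 to 11.2%), Ebf1 in Pax5-KO (0.79 to 15%), Pax5 in Pax5-KO (1.53 to 2.71%) and Ebf1 against Pax5 in Ebf1-KO (4.3 to 6.29%). The cause was not tested.

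The family's median kept its sign in 8 of the 9 contrasts under every alternative run; for Ebf1 in Ebf1-KO it ran from −0.16 to 0.14. For Ebf1-KO against WT it was 0.22 with upper-quartile scaling and 0.065 to 0.28 without 1 library, and for Ebf1 against Pax5 in Ebf1-KO 0.39 with RLE scaling or DESeq2, 0.47 with upper-quartile scaling and 0.36 to 0.45 without 1 library. Ranges without 1 library were −0.58 to −0.31 for Pax5 in Ebf1-KO and −0.66 to −0.34 for Ebf1 in Pax5-KO. The ribosomal protein share of protein-coding counts was 1.17% in WT, 1.43, 1.36 and 1.14% in Ebf1-KO with the empty vector, Ebf1 and Pax5, and 1.00 and 1.38% in Pax5-KO with Ebf1 and Pax5; without the 10 most abundant other genes it was 1.18, 1.45, 1.38, 1.15, 1.02 and 1.40%. In empty-vector Pax5-KO the 2 libraries had 1.24 and 1.55%, and 1.27 and 1.58% without those genes. The first empty-vector Ebf1-KO library, at 1.53% and 1.535% without those genes, was near the second of these. With peaks above the median score 4 members had a peak. Myc with Ebf1 in Pax5-KO turned from 0.28 to −0.015 without the second Ebf1 library and was at most 0.50 without any other 1.

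The difference in log2 CPM between the 2 libraries of a group was correlated between groups, gene by gene. These correlations ran from −0.0586 to 0.0126 for pairs of groups that include WT and from 0.0764 to 0.236 for the others. The numbers were therefore not taken as pairs. With the replicate number as a block, 1 member was called between Ebf1-KO and WT (17.2% of all genes), 2 with Pax5 in Ebf1-KO (6.3%) and 3 with Ebf1 in Pax5-KO (5.64%).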

Other observations

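Rpsa stood at 238 CPM in the second Pax5-KO library with the empty vector and between 74.9 and 108 in every other library. Mrps5, a mitochondrial ribosomal protein gene, stood at 95.0 CPM in the second library of Ebf1-KO with Ebf1 and at 13.9 in the first, and between 7.71 and 25.7 in all other groups. Its difference between Ebf1 and Pax5 in Ebf1-KO, 2.61 (adjusted p = 0.0185), passed edgeR's test; without that library the value was 0.64 (adjusted p = 0.632), and without the first or second Pax5 library the adjusted p was 0.123 and 0.0831. Both genes were singled out after their values were seen.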
